A study of Mus musculus with 2 samples.

Results

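The thin filament and smooth muscle contractile genes described here are *Acta2*, *Tagln*, *Cnn1*, *Cnn2*, *Cnn3*, *Tpm1*, *Tpm2*, *Tpm3*, *Tpm4* and *Tnnt2*. They were found by gene symbol in the deposited expression table, which held all 10 of them among its 22156 rows. RNA of primary chondrocytes, the cells of cartilage, was sequenced as 1 library of control mice and 1 of *Myl3*-KO mice. By the paper's methods, its primary chondrocytes came from newborn mice and were kept as a monolayer in medium with serum. The paper names no treatment for the sequenced cells and does not give their passage. The labels give rib cartilage as the tissue, and the paper's methods name rib and articular cartilage. *Myl3*-KO mice carry Col2a1-Cre and homozygous floxed *Myl3*, so the deletion is limited to cells in which the *Col2a1* promoter has driven the recombinase. The controls are described in the methods as littermates that carry the floxed alleles without Cre, whereas their label reads WT, and all mice were on the C57BL/6 J background. The number of animals behind each library is not given in the sources used here.

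MYL3 is an essential light chain of muscle myosin, the motor that pulls on thin filaments. A thin filament is a polymer of actin along which tropomyosin lies as a coiled coil. In striated muscle, troponin moves tropomyosin in response to calcium, whereas smooth muscle has no troponin and relies on calponin, caldesmon and myosin light chain kinase instead. Alpha smooth muscle actin, transgelin and calponin 1 are the classical products of differentiated smooth muscle and of myofibroblasts, and serum response factor (SRF) drives their genes. The other calponins and most tropomyosin isoforms are also made by cells that are not muscle.

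The libraries held 17612435 (control) and 13477977 (*Myl3*-KO) expected counts, an expected count being an estimated number of reads per gene. At these totals, 3 counts, taken as the floor below which no level was read, correspond to 0.170 and 0.223 CPM (counts per 1000000 counts of the library). *Myl3* had 0 counts in both libraries, so the deletion could not be checked in these counts. The paper reports *Myl3* mRNA by RT-PCR and MYL3 protein by western blot in chondrocytes of both genotypes. It also reports less MYL3 staining in *Myl3*-KO cartilage. Directions rest on the deposited column names and on the paper's list of up-regulated genes. That list gives *Cdh15* a log2 value of 2.38, and its log2 ratio of *Myl3*-KO over control here was 2.38 as well. The label of the cells was checked against 19 chondrocyte markers, of which 18 were in the table, and 9 of these were at or under the floor in both libraries, *Acan*, *Matn1*, *Matn3*, *Hapln1*, *Cnmd* and *Epyc* at 0 counts. The other 9 were tested, among them the transcription factor genes *Sox9* (866 and 480 counts) and *Sox5* (893 and 684), and the collagen genes *Col11a1* (121 and 99) and *Col11a2* (293 and 395), of which *Col11a2* was called higher in *Myl3*-KO. The log2 ratio of *Col11a2* was 0.82 (interval 0.60 to 1.04). *Sox9* was lower in *Myl3*-KO, with a log2 ratio of -0.47 (interval -0.63 to -0.30), under the limit for a call. The other 7 tested markers had intervals that held no change. *Col2a1* was counted 30 times in control and 27 times in *Myl3*-KO cells. The fibroblast and perichondrium markers summed to 17157 (control) and 19300 CPM (*Myl3*-KO), mostly from *Col1a2*, with *Thy1* at 0 in both. Among them *Dcn* (631 and 155 counts) and *Lum* (272 and 81 counts), which encode small matrix proteoglycans, were called lower in *Myl3*-KO, and *Pdgfra* (120 and 140 counts), a growth factor receptor gene, was called higher. The cells are called by their label here. Since the genotypes have 1 library each, no difference has a replicate check and no p-value is given. The intervals are exact 95% intervals that cover counting error only. In such bulk libraries, fewer cells that make a transcript and less transcript per cell cannot be told apart.

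The 10 genes differed widely in level when compared per length, as the deposited FPKM (fragments per kilobase of transcript, scaled to the library total). *Tpm1* stood highest, with 758.93 FPKM in the control and 750.89 in *Myl3*-KO, place 87 and place 80 among all rows of the table. *Tpm4*, *Cnn3*, *Tpm3* and *Cnn2* followed in this order in both libraries, from 396.27 down to 116.23 FPKM in the control and from 391.2 down to 142.14 in *Myl3*-KO. *Tpm2* and *Acta2* lay far below, at 8.89 and 5.48 FPKM in the control and 9.5 and 5.29 in *Myl3*-KO. *Tnnt2* had 0.98 FPKM in the control and 3.19 in *Myl3*-KO. *Cnn1* and *Tagln* were close to 0 in both libraries and were the only neighbours whose order differed between the libraries and whose counting intervals overlapped. The genes most particular to smooth muscle were thus the lowest, together with the striated muscle gene *Tnnt2*. *Tpm1*, *Tpm4*, *Cnn3*, *Tpm3* and *Cnn2* were among the abundant transcripts. For the tropomyosin genes, levels per gene do not tell muscle isoforms from those of other cells.

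**Figure D1:**
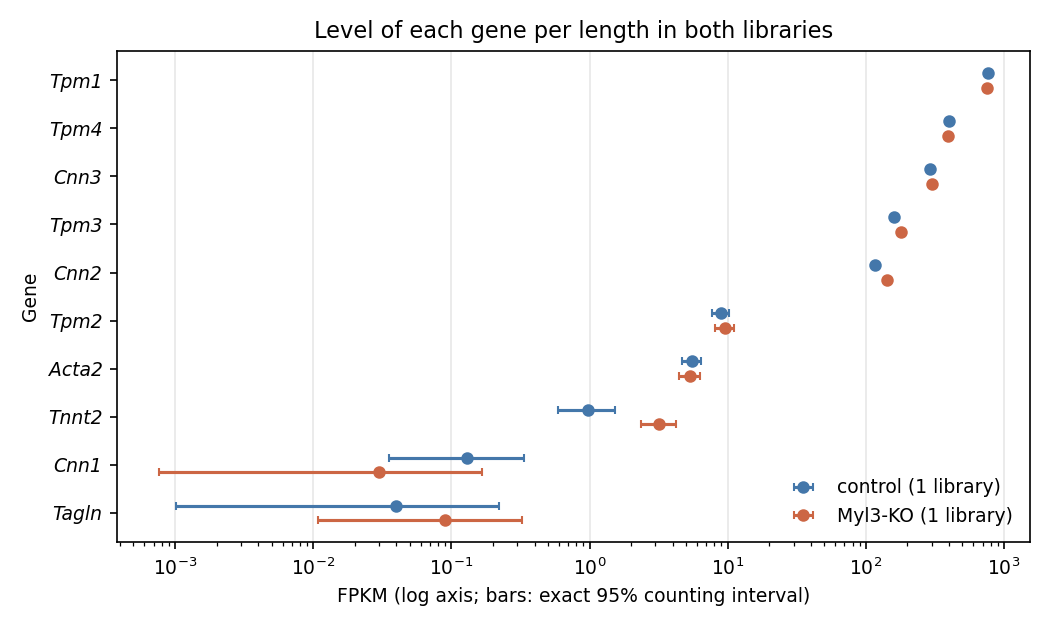
Level of each gene in FPKM on a log axis, with 1 point for the control library and 1 for the *Myl3*-KO library and bars for the exact 95% counting interval. *Tpm1* to *Cnn2* lie above 100 FPKM in both libraries, *Tagln* and *Cnn1* below 1 FPKM, and *Tnnt2* is the gene whose points and bars stand apart between the libraries over the widest distance.

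Between the libraries, *Tnnt2* was higher in *Myl3*-KO, 7 other genes of the group stayed within 1.5-fold, and *Cnn1* and *Tagln* had too few counts to be tested. A gene was called where its CPM ratio of *Myl3*-KO over control was at least 1.5-fold and the counting interval held no value of no change, among the 12431 genes whose counts in the libraries summed to 10 or more. By this rule 1 of the 8 tested genes was called higher and 0 were called lower, against 3.64% of all genes tested called higher and 1.12% called lower. The median log2 ratio of the 8 genes was 0.07, and it was 0.02 over all genes tested. With all 10 genes and counts under 3 raised to 3, the median was 0.07 as well. The call does not use the counting interval alone, because at this depth an interval above no change was found for 22.2% of the genes tested and one below for 20.1%.

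**Figure D2:**
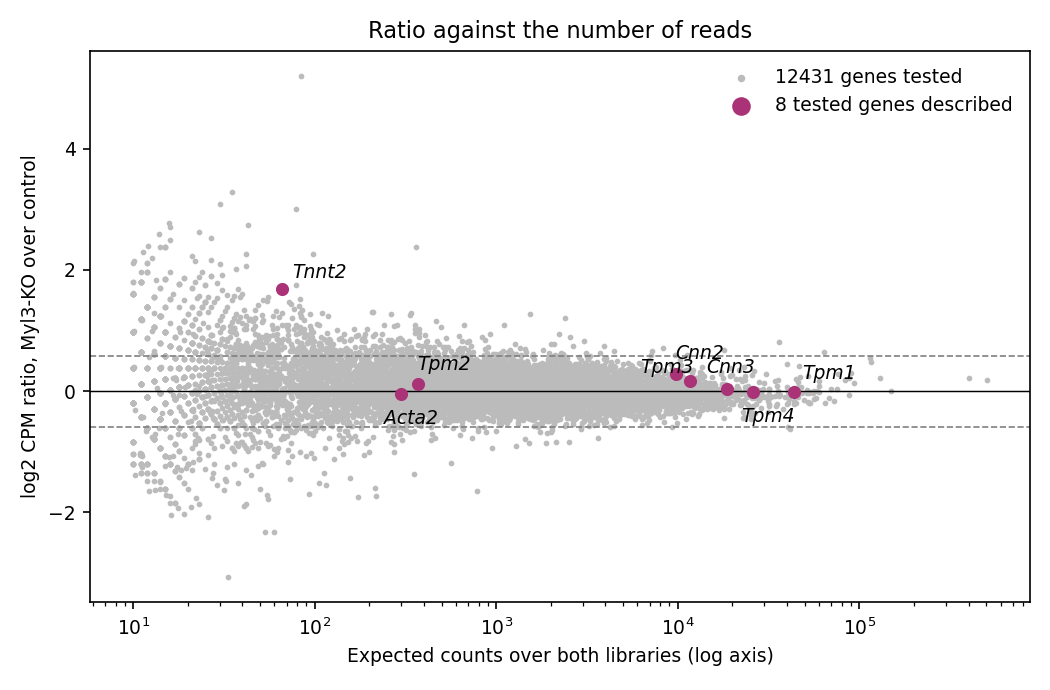
log2 CPM ratio of *Myl3*-KO over control for each of the 12431 genes tested (grey points) against its expected counts over both libraries on a log axis, with the 8 tested genes of the thin filament and smooth muscle group in purple and dashed lines at 1.5-fold. *Tnnt2* lies at 1.69 on the log2 scale with 66 counts, where grey points spread widely, and the 5 genes with over 1000 counts lie between -0.02 and 0.29.

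*Acta2* (ENSMUSG00000035783, chromosome 19 from 34241090 to 34255590 of GRCm38, minus strand) encodes the alpha actin of vascular smooth muscle. *Acta2* was counted 172 times in control and 127 times in *Myl3*-KO cells, or 9.77 and 9.42 CPM. Both libraries were thus at nearly the same level, with a log2 ratio of -0.05 (95% interval -0.39 to 0.29). As a ratio, the counting interval ran from 0.761- to 1.22-fold. Only 2.55 reads of *Acta2* were counted per 1000 reads of the cytoplasmic actins *Actb* and *Actg1* in the control, and 2.05 in *Myl3*-KO. This ratio within a library does not depend on the scaling between libraries, and it differed by -0.32 on the log2 scale, with an interval of -0.65 to 0.01 that held no difference. Few of the 31-base words of the *Acta2* transcripts occur in *Actg1* (1.20%) or *Actb* (0.785%).

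*Tagln* (ENSMUSG00000032085, chromosome 9 from 45929619 to 45936058, minus strand) encodes transgelin, also called SM22 alpha, an actin-binding protein of smooth muscle. It was counted only 1 time in control and 2 times in *Myl3*-KO cells, both under the floor, so no ratio was read. Its relative *Tagln2*, which is made in many cell types, was counted 2456 times in control and 2007 times in *Myl3*-KO cells (log2 ratio 0.09, interval 0.01 to 0.18). The *Tagln* locus overlaps *Pcsk7* on the other strand, whose 644.5 and 541.3 counts include fractions of reads. Of the 31-base words of the *Tagln* transcripts, 3.93% also occur in *Pcsk7* and 58.2% in the antisense gene *Gm48529*, which is not a row of the table. The strand setting of the counting is not given in the sources used here, and whether it lowered the count of *Tagln* was not tested.

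The calponin genes divided into 1 gene near the floor and 2 abundant genes. *Cnn1* (ENSMUSG00000001349, chromosome 9 from 22099216 to 22109630), the calponin of differentiated smooth muscle, was counted 4 times in control cells and only 1 time in *Myl3*-KO cells. Since the *Myl3*-KO count is under the floor, no fold was read. Without the floor the log2 ratio was -1.61, with a counting interval from -7.24 to 1.72 that gives no direction. All of its 31-base words (100%) are its own. *Cnn2* (ENSMUSG00000004665, chromosome 10 from 79988584 to 79996062), which encodes a calponin found in smooth muscle and in non-muscle cells, was counted 5036 times in control and 4701 times in *Myl3*-KO cells, or 286 and 349 CPM. Its log2 ratio was 0.29 (interval 0.23 to 0.34), or 1.22-fold, below the limit for a call. *Cnn3* (ENSMUSG00000053931, chromosome 3 from 121426497 to 121458207), the acidic calponin, was counted 10525 times in control and 8236 times in *Myl3*-KO cells, or 598 and 611 CPM, with a log2 ratio of 0.03 (interval -0.01 to 0.07). Of its 31-base words, 68.0% were its own, the others being shared with loci outside the table.

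Within the calponin reads, *Cnn2* took a share of 32.4% (95% Clopper-Pearson interval 31.6 to 33.1) in the control library and 36.3% (35.5 to 37.2) in *Myl3*-KO. The share of *Cnn3* went from 67.6% to 63.7%, and that of *Cnn1* was 0.0257% and 0.00773%. The 2 abundant calponin genes therefore differed in their ratios by 0.25 on the log2 scale (interval 0.18 to 0.33), a comparison chosen after the values were seen. It does not depend on the scaling between libraries and is larger than counting error, but without a replicate it cannot be set against the spread between cultures.

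The 250 bases before the RefSeq start of each calponin gene are shown because the 3 genes differ so widely in level. The windows are chr9:22099003-22099252, chr10:79988350-79988599 and chr3:121426291-121426540 of GRCm38.p6, all on the plus strand and written 5′ to 3′, with matches to the CArG box of SRF in capitals.
Cnn1: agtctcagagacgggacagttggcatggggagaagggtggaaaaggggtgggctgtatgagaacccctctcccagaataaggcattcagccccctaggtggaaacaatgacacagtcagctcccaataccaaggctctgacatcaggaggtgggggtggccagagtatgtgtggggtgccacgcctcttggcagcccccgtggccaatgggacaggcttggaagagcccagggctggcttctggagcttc
Cnn2: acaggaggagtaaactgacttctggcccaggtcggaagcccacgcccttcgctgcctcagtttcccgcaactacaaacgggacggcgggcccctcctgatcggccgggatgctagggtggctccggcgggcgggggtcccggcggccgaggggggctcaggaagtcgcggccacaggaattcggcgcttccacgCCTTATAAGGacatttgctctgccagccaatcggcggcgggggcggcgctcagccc
Cnn3: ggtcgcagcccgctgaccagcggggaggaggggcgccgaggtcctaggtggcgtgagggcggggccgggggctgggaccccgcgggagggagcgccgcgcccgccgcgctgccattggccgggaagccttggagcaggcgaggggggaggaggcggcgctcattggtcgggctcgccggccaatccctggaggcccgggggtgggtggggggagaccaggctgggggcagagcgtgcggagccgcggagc
The window of *Cnn2* held 1 CArG box, which begins at position -56 from the start, and those of *Cnn1* and *Cnn3* held 0. The CArG box was searched on both strands as CC and GG around 6 bases that are each A or T, and occurred in 1.47% of the 32851 windows of the same length in the RefSeq table. Among the 9 genes of the group with a window, *Cnn2* was the only one with a match to this strict pattern. Looser forms of the box, such as ccctatatgg in the window of *Acta2*, were not counted. A window without a match may therefore still hold a CArG-like sequence. The share of G and C was 59.2% in the window of *Cnn1*, 68.4% in that of *Cnn2* and 78.8% in that of *Cnn3*. These are descriptions of the letters in short windows, and no binding was measured.

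The 4 tropomyosin genes encode the coiled coil along the actin filament, each giving several isoforms by alternative promoters and splicing that counts per gene do not separate. *Tpm1* (ENSMUSG00000032366, chromosome 9 from 67022590 to 67049406, minus strand) was counted 24878 times in control and 18935 times in *Myl3*-KO cells, or 1413 and 1405 CPM. The log2 ratio was -0.01 (interval -0.04 to 0.02). *Tpm4* (ENSMUSG00000031799, chromosome 8 from 72134975 to 72153142) had 14852 and 11220 counts, or 843 and 832 CPM, and a log2 ratio of -0.02 (interval -0.05 to 0.02). These 2 genes lay at nearly equal levels in the libraries, and whether their intervals held no change depended on the scaling. With edgeR's TMM factors the log2 ratios were -0.03 for *Tpm1* (interval -0.06 to -0.01) and -0.05 for *Tpm4* (interval -0.08 to -0.01), while without the 10 most abundant genes in the total that of *Tpm1* was 0.01. Of the 31-base words of *Tpm4*, 80.0% were its own, the others being shared with loci that are not rows of the table.

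*Tpm3* (ENSMUSG00000027940, chromosome 3 from 90072649 to 90100902) was counted 6261.12 times in control and 5379.14 times in *Myl3*-KO cells, or 355 and 399 CPM. Its log2 ratio was 0.17 (interval 0.11 to 0.22), or 1.12-fold, under the limit for a call. Of its 31-base words, 26.9% also occur in the retrogene *Tpm3-rs7*, which had 8.88 and 8.86 counts, and its own counts were not whole numbers, so its value is uncertain to that extent. *Tpm2* (ENSMUSG00000028464, chromosome 4 from 43514711 to 43523765, minus strand), the beta tropomyosin of muscle, was counted 202 times in control and 167 times in *Myl3*-KO cells, or 11.5 and 12.4 CPM, with a log2 ratio of 0.11 (interval -0.19 to 0.41).

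Among all tropomyosin reads, *Tpm1* had a share of 53.9% in the control (interval 53.4 to 54.3) and 53.0% in *Myl3*-KO (52.5 to 53.6). *Tpm4* had 32.2% and 31.4%, and *Tpm2* had 0.437% and 0.468%. The share of *Tpm3* was 13.6% (13.2 to 13.9) in the control and 15.1% (14.7 to 15.4) in *Myl3*-KO, the only one of the 4 shares whose intervals did not overlap. The difference was 1.51 percentage points, and 1.39 when the shares were taken from FPKM. The shares of *Tpm1* and *Tpm4* differed by -0.82 and -0.72 points, and overlapping intervals do not show that these shares were equal. In pairs within a library, chosen after the values were seen, *Tpm3* over *Tpm1* differed by 0.17 on the log2 scale (interval 0.12 to 0.23), *Tpm4* over *Tpm1* by -0.01 (-0.06 to 0.03) and *Tpm2* over *Tpm1* by 0.12 (-0.18 to 0.42). The make-up of the tropomyosin reads was thus nearly the same in both libraries, apart from a slightly larger part of *Tpm3* in *Myl3*-KO.

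**Figure D3:**
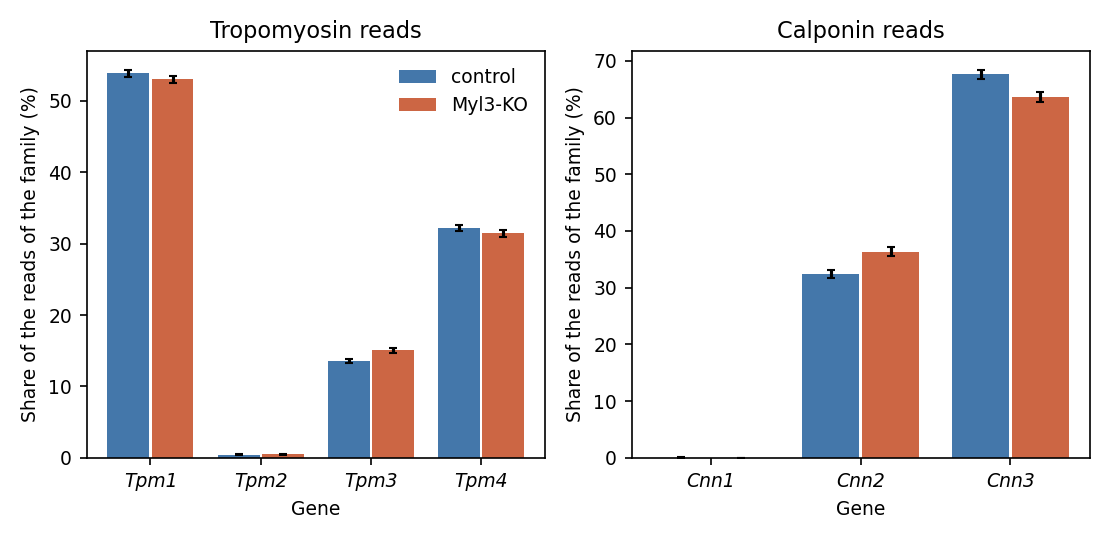
Share of each gene, in percent, of the reads of the 4 tropomyosin genes (left) and of the 3 calponin genes (right) in the control and *Myl3*-KO libraries, with bars for the 95% Clopper-Pearson interval. *Tpm1* holds just over 50% of the tropomyosin reads in each library, and the share of *Cnn2* is 32.4% in the control and 36.3% in *Myl3*-KO.

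Set against the 6385 well-counted genes, those whose counts summed to 1000 or more, *Cnn2*, *Cnn3*, *Tpm1*, *Tpm3* and *Tpm4* lay within the usual spread. The middle 95% of those genes had log2 ratios from -0.39 to 0.42, which contains all 5. A ratio at least as high as that of *Cnn2* was found for 7.82% of the well-counted genes, and one at least as high as that of *Tpm3* for 19.5%. Of the 5 genes, 0 were called, against 0.689% of the well-counted genes called higher and 0.282% called lower. *Cnn2* and *Tpm3* had an interval above no change, as had 27.4% of the well-counted genes, while 31.3% had one below. The median of the 5 genes was 0.03 and that of the well-counted genes -0.01.

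*Tnnt2* (ENSMUSG00000026414, chromosome 1 from 135836354 to 135852260) encodes cardiac troponin T, the subunit that ties the troponin complex to tropomyosin in the heart and in embryonic skeletal muscle. It was counted 19 times in control and 47 times in *Myl3*-KO cells, or 1.08 CPM (interval 0.649 to 1.68) and 3.49 CPM (2.56 to 4.64), so the intervals of the libraries did not overlap. The ratio was 3.23-fold, or 1.69 on the log2 scale (interval 0.90 to 2.54), and the deposited FPKM gave 1.70. Of all genes tested, 0.563% had a ratio at least as high. Low counts scatter more, and among the 1245 genes with 33 to 132 counts over both libraries, a range chosen around the 66 counts of *Tnnt2* after they were seen, 0.803% were at least as high and 13.7% were called higher. Nearly all of its 31-base words (99.8%) occur in no other annotated transcript.

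The sequence before the first RefSeq start of *Tnnt2* is shown because it is the gene of the group that was called. The window is chr1:135836084-135836333 of GRCm38.p6 on the plus strand, 5′ to 3′, and the capitals mark a match to the MCAT element bound by TEAD factors, searched as CATTCC on both strands.
Tnnt2: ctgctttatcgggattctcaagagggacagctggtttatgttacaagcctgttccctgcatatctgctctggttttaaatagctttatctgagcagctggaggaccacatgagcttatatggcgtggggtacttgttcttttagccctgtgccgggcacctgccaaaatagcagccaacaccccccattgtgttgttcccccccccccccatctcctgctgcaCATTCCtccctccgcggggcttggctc
The match begins at position -27. Such a match was found in 12.6% of the windows of this length in the RefSeq table, and of the 9 genes with a window, *Tnnt2*, *Tpm1* and *Acta2* held one. A second RefSeq start of *Tnnt2* has a window with 0 matches. The TATA box, searched as TATAAA on both strands, was in none of the 11 windows of the group and in 12.4% of all windows. *Tagln* had no window in the table.

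The other subunits that would form a troponin complex with troponin T had few counts or none. Of 7 further troponin genes, 5 were at or under 3 counts in both libraries, among them the fast and slow skeletal troponin T genes *Tnnt3* and *Tnnt1*. *Tnni3*, the cardiac inhibitory subunit, was counted 12 times in control and 15 times in *Myl3*-KO cells (log2 ratio 0.71, interval -0.49 to 1.93). *Tnnc1*, the calcium-binding subunit of cardiac and slow muscle, had 22 and 16 counts (log2 ratio -0.07, interval -1.10 to 0.92). Neither differed beyond counting error, and the intervals are too wide to say that they stayed the same.

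Markers of muscle cells were looked up beside *Tnnt2*. Of 9 cardiac markers, 7 had 0 counts in both libraries, *Myh6*, *Nppa*, *Actn2* and *Nkx2-5* among them, and the list summed to 1.42 (control) and 1.85 CPM (*Myl3*-KO). Of 19 skeletal muscle markers, 16 were at or under the floor in both, with *Myod1*, *Myog*, *Myf5*, *Pax7*, *Ckm* and *Des* at 0, and the sum was 13.8 (control) and 33.3 CPM (*Myl3*-KO). The M-cadherin gene *Cdh15* made up most of that difference, with 73 and 290 counts, and was called higher. *Pax3* of the same list was also expressed, with 143 and 139 counts (8.12 and 10.3 CPM), and was not called. Of 11 smooth muscle and pericyte markers, 5 were at or under the floor in both libraries, including *Notch3*, *Kcnj8* and *Abcc9*. That list summed to 251 (control) and 388 CPM (*Myl3*-KO), mostly *Pdgfrb*, the receptor for platelet-derived growth factor on pericytes and fibroblasts, with 3689 and 4617 counts. *Pdgfrb* was called higher (log2 ratio 0.71, interval 0.65 to 0.77), the only call in that list. *Cspg4* (344 and 366 counts) had a log2 ratio of 0.48 (interval 0.26 to 0.69). *Mcam* (370 and 225 counts) went the other way, with -0.33 (interval -0.58 to -0.09). The endothelial markers summed to 0.397 and 0.890 CPM and the immune markers to 2.05 and 2.15 CPM. The part of these lists in the value of *Tnnt2* was not tested.

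Other genes of the contractile apparatus came from lists of 58 symbols, of which 56 were in the table (the SRF cofactors are listed there as *Mkl1* and *Mkl2*) and 37 were tested. Of these, 3 were called higher and 1 lower, and the other 33 were not called, where 3.64% of all genes tested were called higher and 1.12% lower. Their median log2 ratio was 0.19, against 0.02 for all genes tested, and the lists were not chosen independently of earlier results. The genes called higher were all in the list of smooth muscle genes outside the thin filament. *Mylk*, the myosin light chain kinase, was counted 285 times in control and 345 times in *Myl3*-KO cells (log2 ratio 0.66, interval 0.43 to 0.89). The integrin gene *Itga8* had 17 and 30 counts (1.21, interval 0.30 to 2.16) and the amine oxidase gene *Aoc3* had 39 and 59 (0.98, interval 0.38 to 1.61). Both lay in the range of 33 to 132 counts over both libraries, in which 13.7% of genes were called higher. *Smtnl2*, a smoothelin-like gene, was called lower, with 57 and 16 counts (-1.45, interval -2.35 to -0.63). Another 5 genes with few counts lay past 1.5-fold with intervals that held no change. They were *Lmod1*, *Ldb3*, *Nrap* and *Tnni3*, with log2 ratios of 1.56, 1.16, 0.78 and 0.71, and *Tmod1*, with -1.27.

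The 21 smooth muscle genes outside the thin filament, of which 16 were tested, ranged from 0 to well counted. *Myl9*, the regulatory myosin light chain of smooth muscle, and the intermediate filament gene *Des* had 0 counts in both libraries, and the smooth muscle myosin gene *Myh11* had 7 and 2. *Hspb6* (282 and 208 counts), *Csrp1* (588 and 499) and *Lpp* (2799 and 2616) of the same list were expressed and not called. *Myocd*, the SRF cofactor of smooth muscle, had 0 counts in both libraries. SRF itself was expressed, with 845 (control) and 602 (*Myl3*-KO) counts of *Srf* (log2 ratio -0.10, interval -0.26 to 0.05), and so were its cofactors *Mkl1* (0.21, interval 0.13 to 0.30) and *Mkl2* (0.17, interval 0.04 to 0.29).

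Of the 5 other actin genes, the cytoplasmic actin genes *Actb* and *Actg1* were tested, and neither was called. *Actb* was counted 27536.96 times in control and 24938.98 times in *Myl3*-KO cells (log2 ratio 0.24, interval 0.22 to 0.27), and *Actg1* had 39817 and 36999 (0.28, interval 0.26 to 0.30). The muscle actin genes *Actc1* and *Actg2* had 0 counts in both libraries. Among the genes of the lists that were not called, ratios lay on both sides of no change, though not evenly. Of all 37 tested genes of the lists, 18 had an interval above no change and 4 one below. Over all genes tested these shares were 22.2% and 20.1%. Over the well-counted genes, which 19 of the 37 were, they were 27.4% and 31.3%. The count of 18 depends on the scaling. *Tagln2*, *Tmod3* and *Pdlim7* had lower bounds of 0.009, 0.005 and 0.006, smaller than the shift of -0.03 with TMM factors. In the list of smooth muscle genes outside the thin filament, 9 of 16 tested genes had an interval above and 1 had one below. Of these 16 genes, 7 were well counted. The 9 included *Flna*, *Vcl*, *Actn1*, *Lpp* and *Pdlim7*. *Myl9* and *Des* of that list had 0 counts and *Myh11* too few to be tested, so the 9 do not stand for smooth muscle genes as a whole. The filamin gene *Flna* had a log2 ratio of 0.42 (interval 0.39 to 0.45), the alpha-actinin gene *Actn1* one of 0.35 and the vinculin gene *Vcl* one of 0.34, while *Csrp2* had one of -0.19 (interval -0.33 to -0.05), *Smtn* one of -0.04 and *Nebl* one of -0.02. *Cald1*, which encodes caldesmon, a tropomyosin-binding protein, had 12210 and 10667 counts and a log2 ratio of 0.19 (interval 0.15 to 0.23). The barbed end capping genes went apart, with log2 ratios of -0.29 for *Capza2* and 0.19 for *Capzb*. Within a library, the reads of *Actb* and *Actg1* over those of all tropomyosins were 1458 per 1000 in the control and 1735 per 1000 in *Myl3*-KO. The difference was 0.25 on the log2 scale (interval 0.23 to 0.28), does not depend on the scaling, and was computed after the values were seen.

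**Figure D4:**
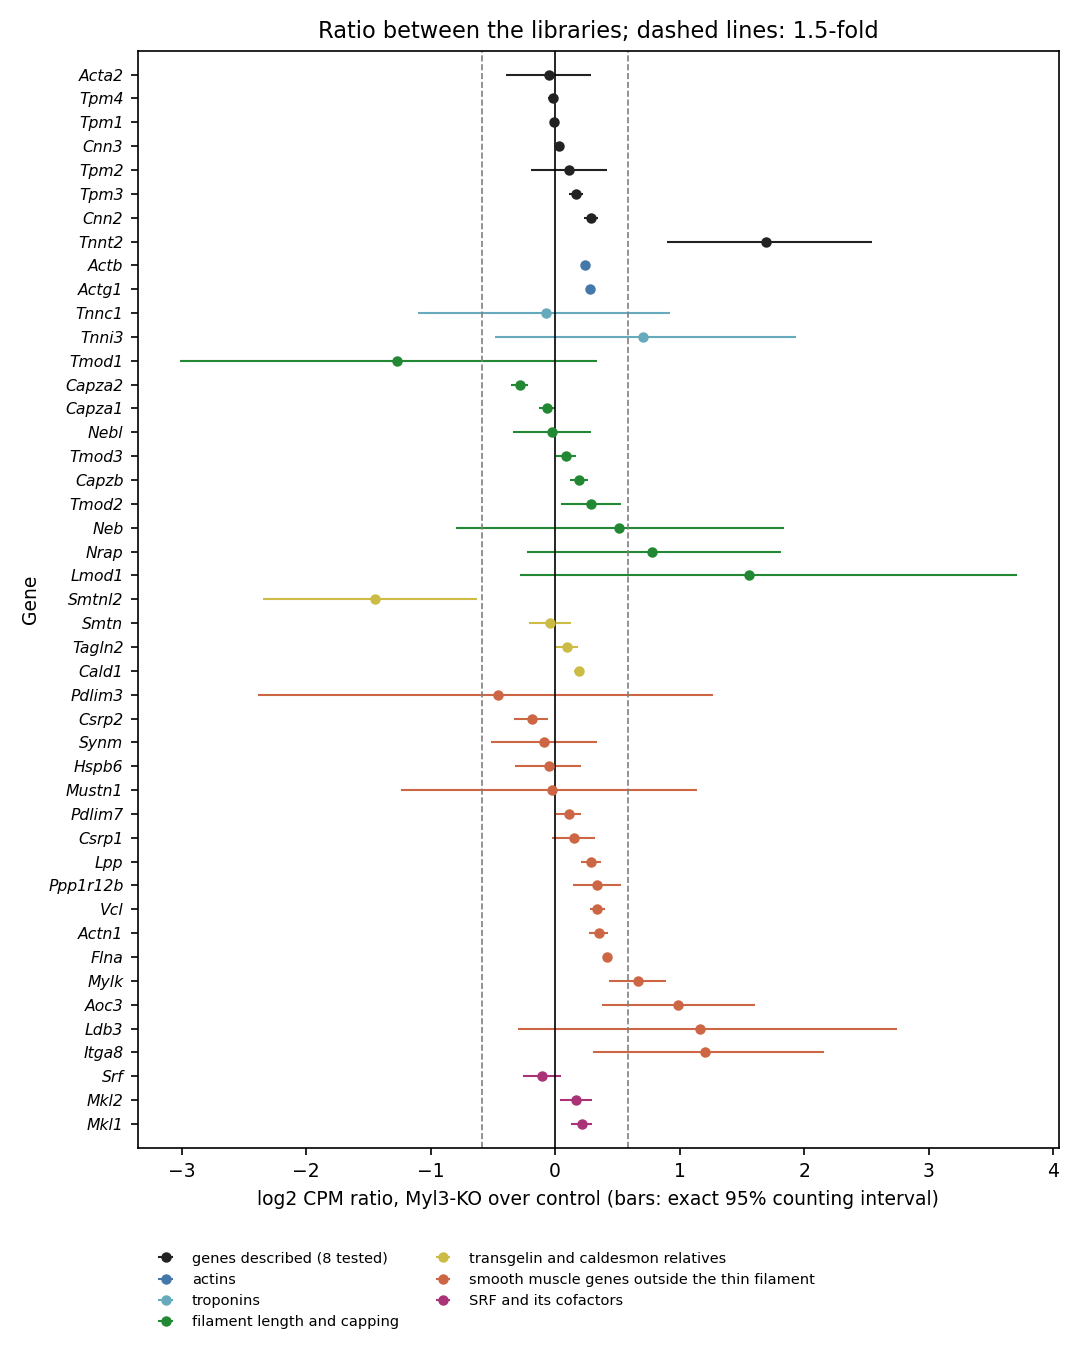
log2 CPM ratio of *Myl3*-KO over control for the 8 tested genes of the thin filament and smooth muscle group (black) and the 37 tested genes of the further lists (colours by list), with bars for the exact 95% counting interval and dashed lines at 1.5-fold. *Tnnt2*, *Itga8*, *Aoc3* and *Mylk* lie beyond the upper line and *Smtnl2* beyond the lower line with bars that leave out 0, and *Tpm1* and *Tpm4* lie at 0.

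By the deposited pathway annotation, 5 of the 10 genes, the tropomyosins and *Tnnt2*, belong to cardiac muscle contraction. Of the 44 tested genes of that pathway, 1 was called higher, which is *Tnnt2*, and 0 were called lower, with a median log2 ratio of -0.06. *Acta2* belongs to vascular smooth muscle contraction, in which 4 of 70 tested genes were called higher and 2 lower, with a median of 0.05. In regulation of the actin cytoskeleton, which lists none of the 10 genes, 13 of 159 tested genes were called higher and 1 lower, with a median of 0.08. Over all genes tested, 3.64% were called higher and 1.12% lower, and no test of these pathways was made.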

How the data were processed

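The authors deposited 1 table with an expected count (estimated reads per gene, not normalized) and an FPKM value for each of 22156 rows in 1 control and 1 *Myl3*-KO library. Per the labels, the build was GRCm38, also named mm10. Aligner, counting tool, annotation and strand are not given in the sources used here. The column headed NC was read as the control because the other is headed KO.

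CPM was computed from the library totals (17612434.91 and 13477976.98 counts). Log2 ratios used counts with values under 3 raised to 3, and intervals are exact conditional (Clopper-Pearson) 95% intervals on rounded counts. With 1 library per group, no model test was run. The rule for calls is 1.5-fold with an interval excluding no change, over the 12431 genes whose counts summed to 10 or more. Its code was run on simulated counts that held counting error only and planted changes larger than the limit. That run held no spread between cultures, so it cannot show how often the rule errs in unreplicated cultures. Calls across all genes carry no adjusted p. All 10 genes, defining markers, called genes of the further lists and any tested gene of them could be named. Genes and lists were chosen with earlier results of these data known. The alternatives were TMM factors, DESeq2 size factors, a total without the 10 most abundant genes, other filters and limits, FPKM, and 1 added count. Positions come from GENCODE M21 (GRCm38), which held 21881 of 21910 Ensembl identifiers, and promoter windows from RefSeq (GRCm38.p6), 9 of the 10 genes matched. Protein sequences were not used here. Python 3.11.15, scipy 1.17.1, R 4.3.3, edgeR 4.0.16 (TMM factors only) and DESeq2 1.42.0 (size factors only) were used.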

Additional observations from a re-analysis of the deposited data

How the results depend on the processing

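*Tnnt2* was the 1 gene of the group past the limit under TMM factors, DESeq2 size factors, a total without the 10 most abundant genes, no filter, at least 10 counts in each library, the FPKM ratio, 1 count added to each library and fold limits of 0.32 on the log2 scale and of 2-fold, with log2 ratios from 1.65 to 1.71. The median log2 ratio of the tested genes ranged from 0.03 (genes with at least 1000 counts) to 0.08. For single genes, 50 of 50 values under the other scalings, FPKM and the added count lay within the counting interval of the main value. This says little, because each scaling shifts all genes by the same small amount. The 50 values also include *Tagln* and *Cnn1*, whose intervals are very wide. The log2 ratio of *Cnn1* went from -0.03 with counts raised to 3 to -2.12 with FPKM. A rule of any size with an interval excluding no change, added after the data were seen, gave 3 genes of the group, 22 of the further lists and 5266 of all genes tested. By that rule *Tpm1* and *Tpm4* were also below no change with TMM or DESeq2 factors, and *Cnn3* above it without the 10 most abundant genes. In the further lists, 4 genes were called, against 8 at the lower fold limit, 2 at 2-fold and, added later, 9 at 1.5-fold with no limit on the interval. Over all genes tested, 591 were called, against 1853, 234 and 1127. The median of all genes tested shifted by -0.03 on the log2 scale with TMM factors. Depth limits *Tagln* and *Cnn1*, which had too few reads to be tested, and the troponin genes other than *Tnnt2*. No paired analysis was possible because each group has 1 library.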
